A study of Homo sapiens with 12 samples.

Results

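The genes described here are 38 amino acid carriers and carrier subunits outside system Xc-, chosen by name from the SLC1, SLC3, SLC6, SLC7, SLC16, SLC36, SLC38 and SLC43 families out of 57167 gene names in the count tables. SLC7A11 and SLC3A2, the 2 subunits of system Xc-, were not among them and serve as reference genes. RNA was sequenced from 12 samples of 2 human neuroblastoma cell lines, with 3 samples in each of 4 groups. KELLY, a line with amplified MYCN, received 1 µM Erastin or DMSO, and SK-N-AS, a line without that amplification, received 2 µM Erastin or DMSO. All samples were taken at 24 h. Erastin is a small molecule that blocks cystine uptake through system Xc-. Because the dose differed between the lines, line and dose cannot be told apart wherever their responses are set side by side. Each line is 1 established culture, and the 3 samples of a group were parallel wells, so the p-values measure the spread between these samples.

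Amino acid carriers of the solute carrier (SLC) superfamily move amino acids across the plasma membrane or out of lysosomes, often as exchangers that trade an amino acid inside the cell for another outside. Light chains of the SLC7 family reach the cell surface only when joined to a heavy chain, SLC3A2 or SLC3A1. When amino acids are short, the kinase GCN2 increases translation of the transcription factor ATF4, which binds composite C/EBP-ATF elements near genes for amino acid uptake and synthesis.

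The core of such an element, TGATGNAA, was looked for on both strands of RefSeq promoter windows (GRCh38.p14), each running from 250 bases before to 50 bases after an annotated start. Of 35116 windows, 1270 (3.62%) held the core. Counted by gene, 1217 of 27305 genes (4.46%) had a match. Windows were found for 29 of the 38 carriers, and 5 of them had a match. Their sites are printed because they let the expression values below be read beside the letters at each start, with the core in capitals and 10 bases on each side, 5′ to 3′ on the strand of the gene.
SLC1A4: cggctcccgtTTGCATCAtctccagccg
SLC7A1: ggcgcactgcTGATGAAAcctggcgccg
SLC1A5: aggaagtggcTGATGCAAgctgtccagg
SLC38A1: cagacccgaaTGATGAAAagggatcagc
SLC1A3: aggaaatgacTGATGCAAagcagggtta
The SLC1A4 site (chr2:64989382-64989409, plus strand) carried the core on the opposite strand from the gene and lay in an untranslated exon. The SLC7A1 site (chr13:29595664-29595691, minus strand) and the SLC1A5 site (chr19:46784894-46784921, minus strand) also lay in untranslated exons. The SLC38A1 site (chr12:46266503-46266530, minus strand) lay in an intron, and the SLC1A3 site (chr5:36596358-36596385, plus strand) lay outside the gene. The windows of SLC6A9 and SLC7A5 held no match, which says only that these letters are not in those windows. A match is a description of the sequence, and no binding was measured.

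The libraries held between 24169796 and 29835670 counts. MYCN averaged 5283 CPM (counts scaled to the library's total and composition) in KELLY DMSO and 0.365 CPM in SK-N-AS DMSO. The 8 adrenergic neuroblast markers summed to between 2454 and 3894 CPM in KELLY DMSO and between 952 and 1039 CPM in SK-N-AS DMSO, and the 8 mesenchymal markers to between 248 and 308 CPM and between 4809 and 5089 CPM. Of 10 blood cell markers, only PTPRC was above 1 CPM on average in SK-N-AS, at 547 CPM ± 67.3 (SD, n = 3) with DMSO, while CD3E, ITGAM and PPBP had no count in those DMSO libraries. HBB had 208 counts in KELLY DMSO replicate 1, 91 in KELLY Erastin replicate 1 and 40 in SK-N-AS Erastin replicate 1, against at most 3 in the other libraries, and the part of either in the results was not tested. In each library, the deviation of a gene from its line's mean followed the GC content of its transcripts, with a Spearman correlation across 12100 genes between -0.844 (DMSO replicate 1) and 0.879 (Erastin replicate 1) in KELLY, and across 11985 genes between -0.766 and 0.784 in SK-N-AS. These correlations are across genes, which are not independent replicates. For the members named for Erastin, KELLY results are therefore given as deposited and, where the value or the call moved, after the GC trend of each library was removed.

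In SK-N-AS, Erastin raised the RNA of 5 carriers: SLC1A4, SLC6A9, SLC7A5, SLC7A1 and SLC1A5. They carry small neutral amino acids, glycine, large neutral amino acids, arginine and lysine, and glutamine, respectively. The filter on low counts left 28 of the 38 members to test. At an adjusted p under 0.05 (edgeR quasi-likelihood test, Benjamini-Hochberg adjustment over 16079 genes), 5 rose, against 0.46% of all tested genes that rose. None fell, against 0.199% of all tested genes, although 3 members were lower at an unadjusted p under 0.05 (background 4.86%), and DESeq2 called 5 members in all (background 1.39%). At the threshold of the study, an unadjusted p of at most 0.05 with a fold change of at least 1.5, 4 members were higher (background 1.33%) and 1, SLC7A4, was lower (background 1.32%). By DESeq2, the tool of the study, 0 members were lower at that threshold (background 0.976%). Without SK-N-AS DMSO replicate 3, 9 members passed the adjusted threshold. The share over all genes in that fit is not given here, so this count is not a result about the carriers. The median log2 fold change was 0.07 over the tested members and -0.01 over all tested genes.

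In KELLY, the same test called no member at an adjusted p under 0.05, where it called 0.00616% of 16238 genes. Among 29 members tested, 5 were higher (background 1.59%) and none lower (background 1.04%) at an unadjusted p under 0.05, and DESeq2 called 3 higher, SLC1A4, SLC6A9 and SLC7A5 (background 0.185%). At the threshold of the study, 4 members were higher, SLC6A9, SLC7A5, SLC1A4 and SLC1A5 (background 1.29%), and none was lower (background 0.727%). Without KELLY DMSO replicate 2, 7 members met that threshold, in a fit whose share over all genes is not given here. Once the GC trend was removed, SLC1A4, SLC6A9 and SLC7A5 rose at an adjusted p under 0.05, against 0.203% of genes. None of them passed when a replicate block was added to that fit.

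**Figure D1:**
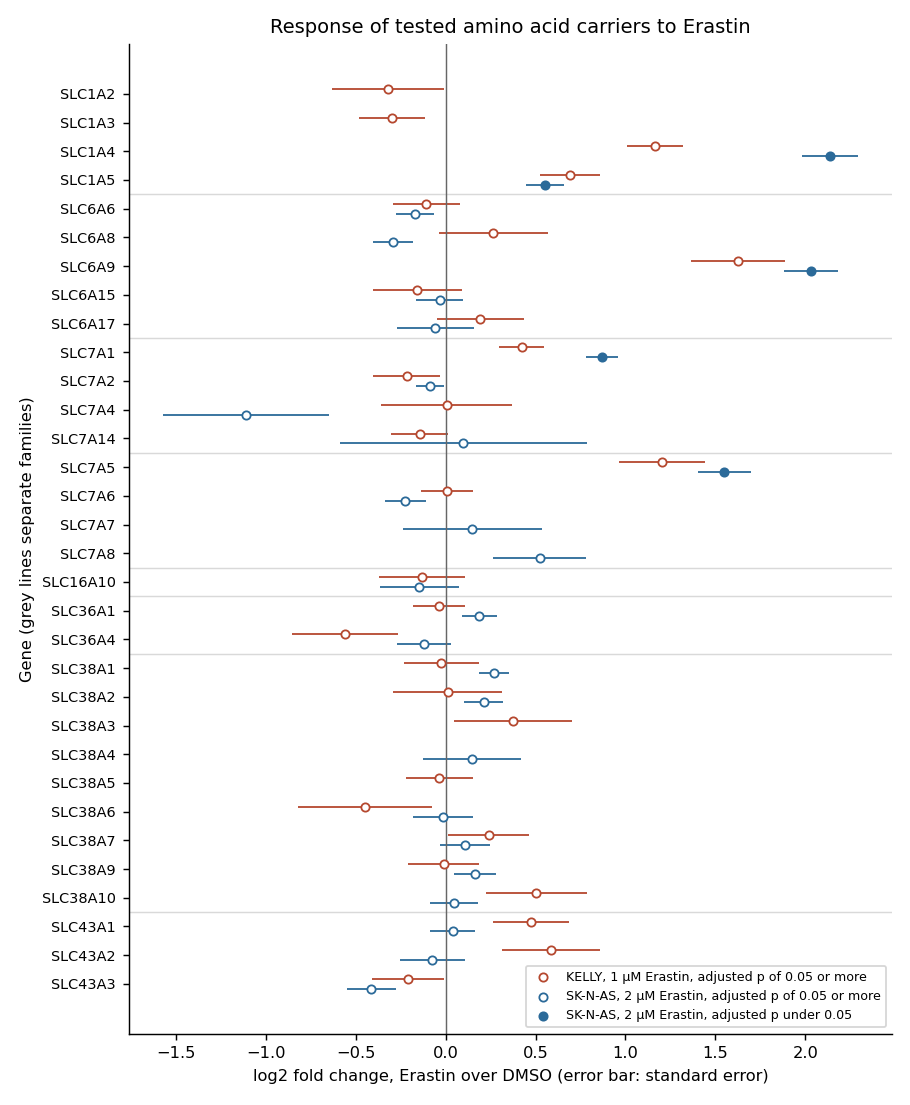
Log2 fold change of Erastin over DMSO (x axis) for each tested carrier (y axis, grey lines between families), with the standard error as bars, in KELLY (red) and SK-N-AS (blue), where filled points had an adjusted p under 0.05. The 5 filled points are SLC1A4, SLC1A5, SLC6A9, SLC7A1 and SLC7A5 in SK-N-AS, and in KELLY no point is filled.

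Within the SLC1 family, the exchanger SLC1A4 (ASCT1), which carries alanine, serine, cysteine and threonine, gave the highest fold change of the tested members in SK-N-AS. Its level was 10.7, 8.06 and 8.72 CPM in the 3 SK-N-AS DMSO libraries and 32.9, 48.2 and 39.0 CPM in the 3 Erastin libraries. The groups did not overlap, and every Erastin library lay above 3 times the lowest DMSO library. The log2 fold change was 2.14 ± 0.16 (SE, n = 3 against 3, edgeR quasi-likelihood adjusted p = 1.84e-05). In KELLY, SLC1A4 stood at 18.9, 22.6 and 21.1 CPM with DMSO and at 48.9, 45.1 and 46.0 CPM with Erastin. The KELLY groups were likewise apart, with a log2 fold change of 1.16 ± 0.16 (edgeR quasi-likelihood adjusted p = 0.192), and of 1.11 ± 0.08 with the GC trend removed (edgeR quasi-likelihood adjusted p = 0.000512).

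SLC1A5 (ASCT2), a sodium-coupled exchanger that carries glutamine, was among the most abundant members. It measured 312, 302 and 257 CPM in SK-N-AS DMSO and 377, 487 and 407 CPM in SK-N-AS Erastin. All Erastin libraries lay above all DMSO libraries, by a log2 fold change of 0.55 ± 0.11 (edgeR quasi-likelihood adjusted p = 0.0343). This call was lost without DMSO replicate 2 (adjusted p = 0.164 by the same edgeR test), without Erastin replicate 2 (adjusted p = 0.187) and without Erastin replicate 3 (adjusted p = 0.0715), and also with all 12 samples in 1 fit (adjusted p = 0.389). In KELLY the values were 173, 217 and 194 CPM with DMSO and 368, 276 and 298 CPM with Erastin. They did not overlap, with a log2 fold change of 0.69 ± 0.17 (edgeR quasi-likelihood adjusted p = 0.771) that was 0.38 ± 0.12 once the GC trend was removed (adjusted p = 0.609 by edgeR). Exons of other genes cover 23.8% of the SLC1A5 exons, and the strand setting of the counting is not given in the sources used here, so part of its count could belong to an overlapping gene.

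The ratio of SLC1A4 to SLC1A5, each as CPM per kilobase of the canonical transcript, was 0.0199 ± 0.0027 (SD, n = 3) in SK-N-AS DMSO and 0.0594 ± 0.0039 in SK-N-AS Erastin. In KELLY it was 0.0677 ± 0.0017 with DMSO and 0.0948 ± 0.0098 with Erastin. SLC1A4 thus stayed well under SLC1A5 per length in every group.

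The glutamate carriers of the family differed in presence. SLC1A1 (EAAT3), which can also carry cysteine, had 1 count over all 12 libraries. SLC1A6 (EAAT4) had 4 counts, all in KELLY DMSO. SLC1A2 (EAAT2) and SLC1A3 (EAAT1) passed the filter on low counts in KELLY alone, and with Erastin their log2 fold changes there were -0.32 ± 0.31 and -0.30 ± 0.19 (edgeR quasi-likelihood adjusted p = 0.771 for both).

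In the SLC6 family, SLC6A9, the glycine carrier GlyT1, stood apart from the other 4 members. It was at 5.00, 3.89 and 4.06 CPM in SK-N-AS DMSO and at 15.5, 20.3 and 16.8 CPM in SK-N-AS Erastin, groups that did not overlap. The log2 fold change was 2.03 ± 0.15 (edgeR quasi-likelihood adjusted p = 1.94e-05). In KELLY it was at 5.17, 8.81 and 7.80 CPM with DMSO and at 28.0, 19.9 and 19.2 CPM with Erastin. KELLY Erastin replicate 1 was the highest of these libraries, and the groups did not overlap, with a log2 fold change of 1.63 ± 0.26 (edgeR quasi-likelihood adjusted p = 0.370). With the GC trend removed it was 1.30 ± 0.12 (edgeR quasi-likelihood adjusted p = 0.00272).

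The other SLC6 members are SLC6A6 (taurine), SLC6A8 (creatine), SLC6A15 (branched-chain amino acids and proline) and SLC6A17 (neutral amino acids in synaptic vesicles). Their KELLY log2 fold changes ran from -0.16 to 0.27 and their SK-N-AS ones from -0.30 to -0.03, none past the adjusted threshold. With the GC trend removed, SLC6A8 fell by 0.25 on the log2 scale in SK-N-AS (edgeR quasi-likelihood adjusted p = 0.00431).

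Among the cationic carriers of the SLC7 family, SLC7A1 (CAT1), the main carrier of arginine, lysine and ornithine in many cells, rose in SK-N-AS. Its level was 169, 155 and 143 CPM with DMSO and 264, 308 and 275 CPM with Erastin. The groups were well apart, with a log2 fold change of 0.87 ± 0.09 (edgeR quasi-likelihood adjusted p = 0.000414). In KELLY it was 248, 285 and 276 CPM with DMSO and 365, 358 and 361 CPM with Erastin. The Erastin libraries all lay higher and close together, by a log2 fold change of 0.42 ± 0.13 (edgeR quasi-likelihood adjusted p = 0.771), and of 0.29 ± 0.09 with the GC trend removed (edgeR quasi-likelihood adjusted p = 0.616). SLC7A1 with DMSO was thus nearly as high in KELLY as with Erastin in SK-N-AS.

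SLC7A4, a relative of the cationic carriers, had 12, 13 and 11 counts in SK-N-AS DMSO and 4, 5 and 8 counts in SK-N-AS Erastin. These few counts gave a log2 fold change of -1.11 ± 0.46, which met the threshold of the study by edgeR and limma-voom but not by DESeq2, and missed the adjusted threshold (edgeR quasi-likelihood adjusted p = 0.497). The KELLY DMSO libraries held 32, 21 and 39 counts of it and the KELLY Erastin libraries 18, 33 and 40, which overlapped, with a log2 fold change of 0.00 ± 0.37 (edgeR quasi-likelihood adjusted p = 0.996) whose sign changed with the setting and which was -0.35 ± 0.51 with the GC trend removed. Exons of other genes cover 73.6% of its exons. SLC7A3 (CAT3) had no count in any DMSO library, and had 1, 9 and 4 counts in KELLY Erastin and 2, 0 and 6 in SK-N-AS Erastin. Set against 3 counts over the DMSO group and scaled to depth, the totals were 4.74-fold higher in KELLY and 2.58-fold higher in SK-N-AS. These values leave out the counting error of the few Erastin counts. SLC7A3 was not tested, being under the filter on low counts.

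Of the SLC7 light chains, SLC7A5 (LAT1), which carries large neutral amino acids, was the most abundant in both lines. It was at 119, 98.0 and 83.0 CPM in SK-N-AS DMSO and at 245, 352 and 277 CPM in SK-N-AS Erastin. Each Erastin library was above each DMSO library, with a log2 fold change of 1.55 ± 0.15 (edgeR quasi-likelihood adjusted p = 0.000209). In KELLY it was at 245, 426 and 375 CPM with DMSO and at 980, 664 and 756 CPM with Erastin. DMSO replicate 1 was the lowest and Erastin replicate 1 the highest, the 2 libraries with opposite GC trends. The KELLY log2 fold change was 1.20 ± 0.24 (edgeR quasi-likelihood adjusted p = 0.654), and 0.88 ± 0.08 with the GC trend removed (edgeR quasi-likelihood adjusted p = 0.00218).

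SLC7A5 works only with the heavy chain SLC3A2, which it shares with SLC7A11. SLC3A2 itself had a log2 fold change of 1.05 ± 0.14 in SK-N-AS (edgeR quasi-likelihood adjusted p = 0.00288) and of 0.97 ± 0.21 in KELLY (edgeR quasi-likelihood adjusted p = 0.771), and SLC7A11 of 2.01 ± 0.11 and 2.12 ± 0.35. With the GC trend removed, both passed in KELLY, SLC3A2 with 0.73 ± 0.11 (edgeR quasi-likelihood adjusted p = 0.0483) and SLC7A11 with 2.45 ± 0.09 (edgeR quasi-likelihood adjusted p = 1.31e-05). Per kilobase, the ratio of SLC7A5 to SLC3A2 was 0.542 ± 0.039 (SD, n = 3) in SK-N-AS DMSO and 0.761 ± 0.039 in SK-N-AS Erastin, and 1.18 ± 0.23 and 1.40 ± 0.08 in KELLY. The KELLY ratios of the 2 groups overlapped. The ratio of SLC7A6 (y+LAT2) to SLC3A2 was 0.0755 ± 0.0160 with DMSO and 0.0310 ± 0.0059 with Erastin in SK-N-AS, where SLC7A6 itself had a log2 fold change of -0.23 ± 0.11 (edgeR quasi-likelihood adjusted p = 0.634). Exons of other genes cover 55.6% of the SLC7A6 exons. SLC7A5 made up 4.43% ± 0.90 (SD, n = 3) of the summed CPM of the 38 members in SK-N-AS DMSO and 10.0% ± 1.4 with Erastin, and 14.0% ± 4.0 and 25.3% ± 5.0 in KELLY.

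**Figure D2:**
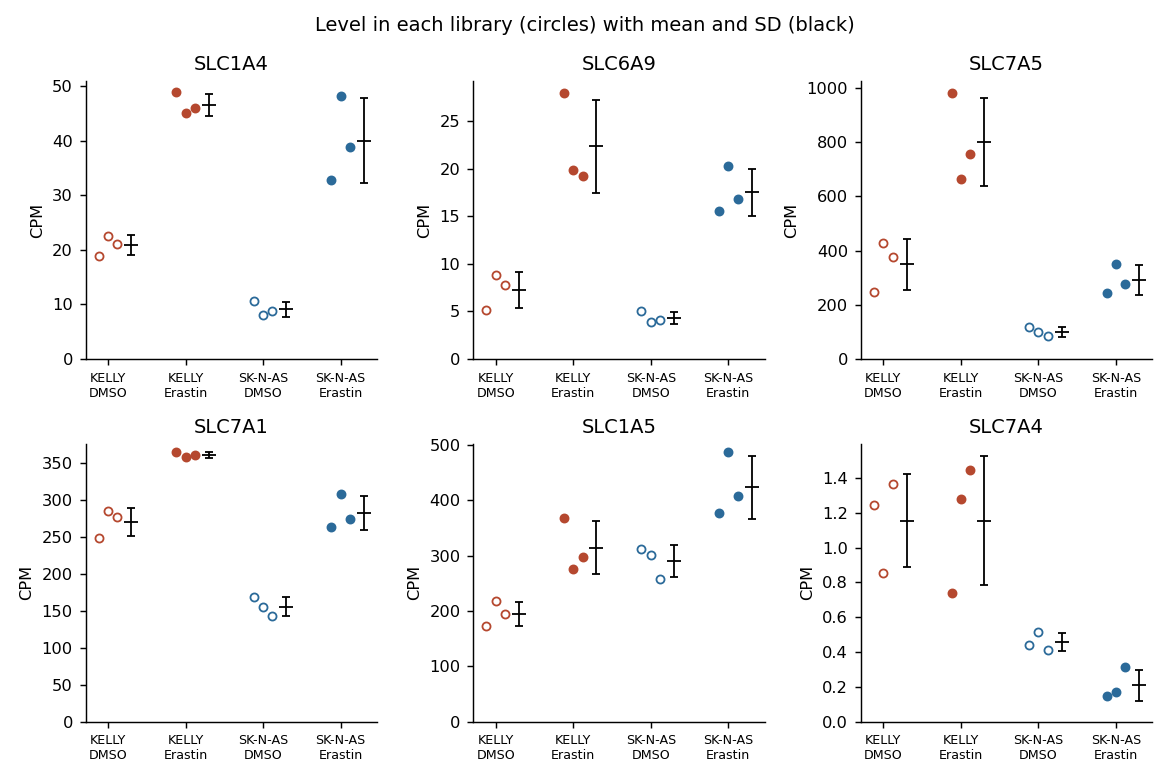
Level in CPM (y axis, from 0) in each library (circles, open for DMSO and filled for Erastin) for the 6 carriers called in at least 1 line, with the mean and SD in black, in KELLY (red) and SK-N-AS (blue). For SLC1A4, SLC6A9, SLC7A5, SLC7A1 and SLC1A5, the 3 Erastin libraries lie above the 3 DMSO libraries in both lines, while the SLC7A4 libraries overlap in KELLY.

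The remaining light chains were scarce. SLC7A7 (y+LAT1) had 49 counts in all in SK-N-AS DMSO and 19 in KELLY DMSO, and SLC7A9 and SLC7A10 had at most 6 counts in any group. SLC3A1, the heavy chain that pairs with SLC7A9 in cystine uptake by kidney and gut, also had at most 6. The RNA of both partners was thus near 0 in both lines. SLC7A8 (LAT2) had no count in KELLY DMSO and 9, 1 and 2 counts in KELLY Erastin, most of them in replicate 1. Set against 3 counts over the DMSO group and scaled to depth, the total was 4.06-fold higher, which leaves out its own counting error.

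The SLC38 family holds the sodium-coupled neutral amino acid carriers. SLC38A2 (SNAT2), the system A carrier known to respond to amino acid supply, had log2 fold changes of 0.01 ± 0.30 in KELLY, 0.28 ± 0.09 there with the GC trend removed (edgeR quasi-likelihood adjusted p = 0.616), and 0.21 ± 0.11 in SK-N-AS. SLC38A1 (SNAT1) had -0.03 ± 0.21 and 0.27 ± 0.08. The adjusted threshold was passed by none of the 8 members tested in KELLY or the 7 tested in SK-N-AS, where SLC38A1 was at an unadjusted p under 0.05. With the GC trend removed, SLC38A1 and SLC38A2 rose in SK-N-AS (edgeR quasi-likelihood adjusted p = 0.00091 and 0.00625), and in SK-N-AS 7 members rose in all (background 2.82%) and 2 fell, SLC6A8 and SLC43A3 (background 3.76%). SLC38A9, the lysosomal arginine sensor that signals to mTORC1, had log2 fold changes of -0.01 in KELLY and 0.16 in SK-N-AS.

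No carrier of the SLC16, SLC36 or SLC43 families passed the adjusted threshold in either line as deposited. SLC16A10 (aromatic amino acids) had log2 fold changes of -0.13 in KELLY and -0.15 in SK-N-AS. SLC36A1 and SLC36A4, carriers of small amino acids and of proline and tryptophan, had -0.04 and -0.56 in KELLY (-0.17 and -0.21 with the GC trend removed) and 0.19 and -0.12 in SK-N-AS. SLC43A1 (LAT3) and SLC43A2 (LAT4), which carry large neutral amino acids without a heavy chain, had 0.48 and 0.58 in KELLY (0.20 and 0.28 with the GC trend removed) and 0.04 and -0.07 in SK-N-AS. SLC43A3, which carries purine nucleobases rather than amino acids, had -0.21 and -0.41, and with the GC trend removed it fell in SK-N-AS (edgeR quasi-likelihood adjusted p = 0.038). Exons of another gene cover 29.9% of its exons.

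Counting libraries alone, 6 of the 29 tested members in KELLY had every Erastin library above every DMSO library (background 4.21%) and 1, SLC1A3, had every Erastin library below (background 4.33%). In SK-N-AS, 8 of 28 lay above (background 6.95%) and 2, SLC7A4 and SLC43A3, below (background 7.81%). The summed level of the 38 members was 2497 CPM ± 43.7 (SD, n = 3) in KELLY DMSO and 3164 CPM ± 21.6 in KELLY Erastin, and 2266 CPM ± 57.1 and 2900 CPM ± 137 in SK-N-AS. A few abundant members weigh most in these sums, and SLC7A5 alone averaged 349 CPM with DMSO and 800 CPM with Erastin in KELLY. The median log2 fold change in KELLY was 0.0044 over the tested members and 0.0049 over all tested genes.

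The KELLY fold changes of the members followed GC content before the trend was removed. Over the 29 tested members, the Spearman correlation between log2 fold change and GC content was 0.711, near the 0.704 of all 14250 tested genes with a GC value, and it was 0.131 with the trend removed. In SK-N-AS it was 0.0307 over 28 members. The points share the same 6 libraries and no p is given. SLC1A4 (50.4% GC) kept a log2 fold change near its deposited value, while SLC7A5 (60.4% GC) and SLC6A9 (60.6% GC) had lower ones.

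**Figure D3:**
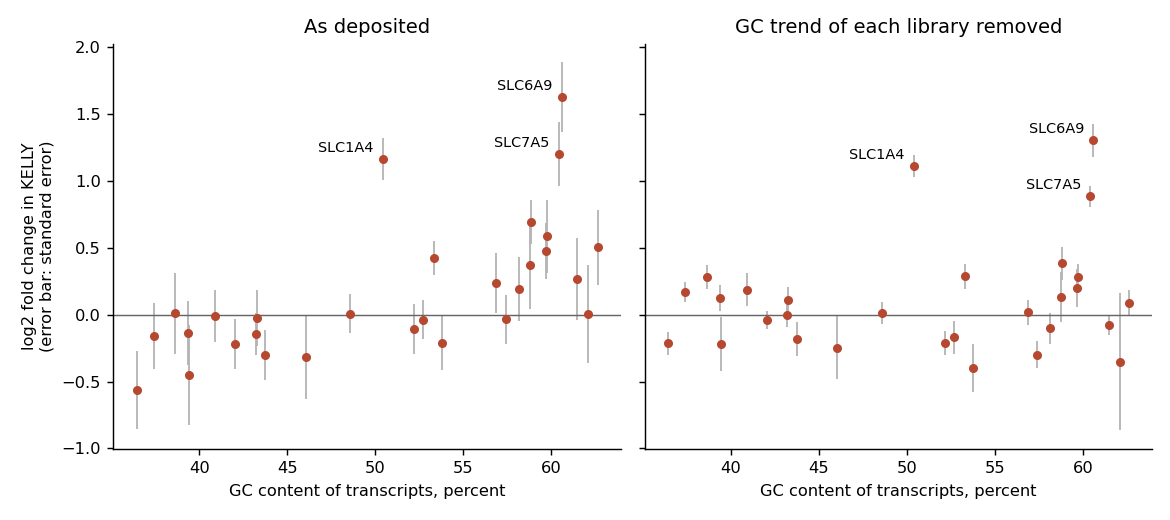
Log2 fold change of Erastin over DMSO in KELLY with its standard error (y axis) against the GC content of each member's transcripts in percent (x axis), as deposited (left) and with each library's GC trend removed (right). The Spearman correlation over 29 members is 0.711 on the left and 0.131 on the right, and SLC1A4, SLC6A9 and SLC7A5 lie highest in both panels.

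Whether the lines responded differently was tested as the interaction of treatment and line, coded as SK-N-AS minus KELLY. No member of 32 tested passed at an adjusted p under 0.05 as deposited (background 0.00549% of 18212 genes). DESeq2 and limma-voom called none either. At an unadjusted p under 0.05 there were 3, SLC1A4, SLC7A1 and SLC7A8 (background 4.23%). SLC7A8 was under the filter on low counts in KELLY and entered this fit through its SK-N-AS counts. Because it had no count in KELLY DMSO and 9, 1 and 2 in KELLY Erastin, its interaction value has no reliable size. With the GC trend removed, 2 members passed (background 0.115%), SLC1A4 with 1.01 ± 0.17 (edgeR quasi-likelihood adjusted p = 0.0303) and SLC7A5 with 0.69 ± 0.12 (edgeR quasi-likelihood adjusted p = 0.043), both larger in SK-N-AS. Neither of these passed once a replicate block was added to that fit. SLC6A9 differed by 0.40 ± 0.31 as deposited and SLC7A1 by 0.44 ± 0.14.

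With DMSO, many carriers differed in level between the lines, as did a large share of all tested genes. At an adjusted p under 0.05 with a fold change of at least 1.5, 18 of 32 tested members were higher in KELLY (background 28.2% of 17071 genes) and 6 were higher in SK-N-AS (background 27.8%). Some called members were tested only through the line where they are high. SLC1A2, SLC1A3, SLC38A3 and SLC38A5 were under the filter on low counts in SK-N-AS, and SLC7A8 and SLC38A4 in KELLY. Their calls were largely set by passing the filter, so their counts, and not their p-values, carry the difference. The comparison rests on 1 culture of each line. In bulk samples, fewer cells that express a gene and less RNA per cell cannot be told apart.

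The glutamate carriers SLC1A3 and SLC1A2 were among those higher in KELLY. SLC1A3 had 462, 464 and 619 counts in KELLY DMSO and 3, 0 and 0 in SK-N-AS DMSO, a ratio of 527 with an exact 95% counting interval from 180 to 2556. SLC1A2 was at 25.8, 12.5 and 17.3 CPM in KELLY and at 0.0368, 0 and 0.263 CPM in SK-N-AS, with a log2 difference of 7.47 ± 0.61 (edgeR quasi-likelihood adjusted p = 1e-05). The libraries of the 2 lines did not overlap for either gene.

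The system N carriers SLC38A3 and SLC38A5, which move glutamine and histidine, followed the same order. SLC38A5 was at 61.7, 80.9 and 69.6 CPM in KELLY and at 0.184, 0.278 and 0.150 CPM in SK-N-AS, a log2 difference of 8.43 ± 0.27 (edgeR quasi-likelihood adjusted p = 8.89e-08). SLC38A3 had 56, 128 and 113 counts in KELLY and 0, 1 and 0 in SK-N-AS, a ratio of 304 (exact 95% counting interval 54.1 to 12034). The lysosomal carrier relative SLC7A14 was at 50.4, 46.0 and 51.2 CPM in KELLY and at 0.515, 0.119 and 0.188 CPM in SK-N-AS, a log2 difference of 7.46 ± 0.36 (edgeR quasi-likelihood adjusted p = 4.82e-07). For each of these genes the 2 lines did not overlap.

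Higher in SK-N-AS were the system A carriers SLC38A4 and SLC38A2. SLC38A4 had 54, 96 and 78 counts in SK-N-AS DMSO and none in any KELLY library. Set against 3 counts over the KELLY DMSO group and scaled to depth, its total was 74.3-fold higher. SLC7A8 had 45, 55 and 28 counts in SK-N-AS DMSO and none in KELLY DMSO, 41.7-fold higher against the same floor. SLC38A2 was at 446, 508 and 621 CPM in SK-N-AS and at 277, 155 and 184 CPM in KELLY, a log2 difference (KELLY minus SK-N-AS) of -1.34 ± 0.23 (edgeR quasi-likelihood adjusted p = 0.0009).

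SLC38A10, a member with little known function, was at 139, 116 and 89.5 CPM in SK-N-AS and at 34.3, 54.7 and 44.4 CPM in KELLY (log2 difference -1.35 ± 0.22, edgeR quasi-likelihood adjusted p = 0.000684). The cationic carrier SLC7A2 was at 225, 239 and 246 CPM in SK-N-AS and at 149, 112 and 122 CPM in KELLY (log2 difference -0.87 ± 0.14, edgeR quasi-likelihood adjusted p = 0.000734). Neither pair of groups overlapped.

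**Figure D4:**
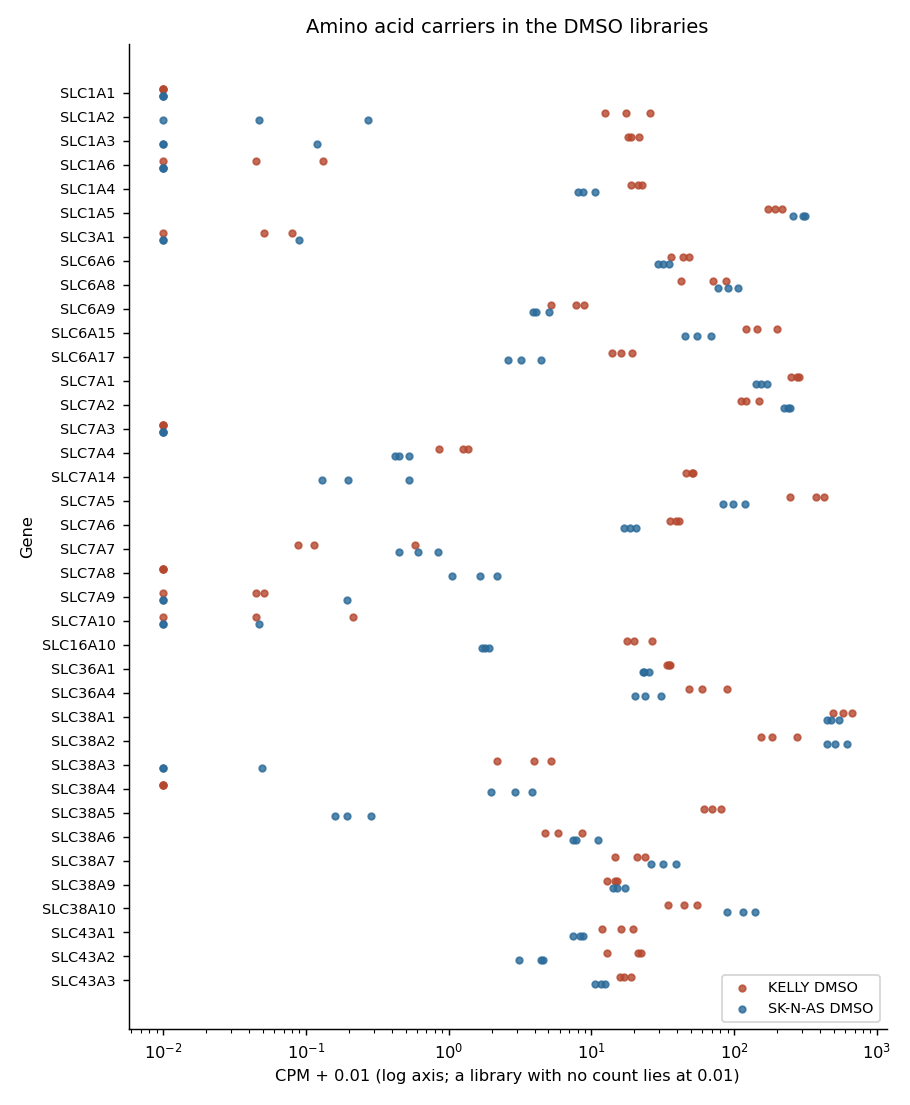
Level of each of the 38 carriers (y axis) in the 3 KELLY DMSO libraries (red) and the 3 SK-N-AS DMSO libraries (blue), as CPM plus 0.01 on a log axis, where a library with no count lies at 0.01. SLC1A2, SLC1A3, SLC7A14, SLC38A3 and SLC38A5 lie far to the right in KELLY, and SLC7A8 and SLC38A4 have no count in KELLY DMSO.

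Per kilobase of canonical transcript, the order of levels also differed. In KELLY DMSO the highest members were SLC7A5 (76.6 ± 20 CPM per kilobase, SD, n = 3), SLC38A1 (71.7 ± 11) and SLC1A5 (67.6 ± 7.6), which did not differ beyond their spread. In SK-N-AS DMSO they were SLC38A2 (109 ± 19) and SLC1A5 (101 ± 10), within their spread of each other, and then SLC38A1 (60.6 ± 6.2), while SLC7A5 ranked 7th at 22.0 ± 4.0. With Erastin, SLC7A5 reached 176 ± 36 in KELLY and 63.9 ± 12 in SK-N-AS. In KELLY DMSO 28 of 38 members were at 1 CPM per kilobase or more, and 20 in SK-N-AS DMSO.

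Other genes of amino acid supply were counted from lists. Of 23 further amino acid carriers, KELLY allowed a test of 7 and SK-N-AS of 6, and none met the adjusted threshold or that of the study. Of 16 regulators of the amino acid response, 6 of 16 tested rose in SK-N-AS at the adjusted threshold and none fell, against 0.46% and 0.199% of all tested genes. In KELLY none of 15 passed it as deposited (background 0.00616%), and 2 rose with the GC trend removed (background 0.203%). Values of the regulators with a replicate block are not given here. ATF4 had a log2 fold change of 1.51 ± 0.09 in SK-N-AS (edgeR quasi-likelihood adjusted p = 5.13e-06) and of 0.81 ± 0.19 in KELLY (edgeR quasi-likelihood adjusted p = 0.771), which was 0.65 ± 0.07 with the GC trend removed (edgeR quasi-likelihood adjusted p = 0.00613).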

How the data were processed

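RNA of KELLY and SK-N-AS cells was sequenced as paired-end reads. Per the labels and the study's methods, the authors trimmed reads with Trimmomatic, aligned them to GRCh38 and used HTSeq with a GENCODE annotation to count reads for each gene. The aligner and the strand setting are not given in the sources used here. The deposited values are raw counts, in 1 table per line, and 0 sample columns were left out. Rows that share a gene name were summed (1568 repeats in each table). Totals ranged from 24169796 to 29835670 counts per library. Intervals cover counting error only. Folds set against 3 counts over a group leave out the counting error of the other group.

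Each comparison used edgeR 4.0.16 (R 4.3.3) with TMM scaling, its default filter on low counts, the quasi-likelihood test and Benjamini-Hochberg adjustment. DESeq2 1.42.0 and limma 3.58.1 (voom) were alternatives, as were other scalings and filters, protein-coding genes alone, all 12 samples in 1 fit, a replicate block, omission of each library, and removal of each library's GC trend by loess (span 0.5, degree 2, genes with a mean of at least 50 counts). The fitting code was tested on simulated data. CPM values use 1 TMM scaling over 12 libraries. Standard errors are the absolute log2 fold change divided by the square root of F. Lengths, GC content and positions came from GENCODE 44 (GRCh38), matched for 36230 names by symbol and 871 by a RefSeq synonym.

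Members called for Erastin in at least 1 line, at either threshold, are named with values per library, and in the control comparison the 5 called members with the largest difference in each direction. Members and lists were chosen with earlier results of these data known.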

Additional observations from a re-analysis of the deposited data

Results flagged for a closer look

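For 2 members the response to Erastin differed between the lines in the interaction test with the GC trend removed. SLC1A4 had a log2 difference (SK-N-AS minus KELLY) of 1.01 (edgeR quasi-likelihood adjusted p = 0.0303), against 0.97 as deposited (edgeR quasi-likelihood adjusted p = 0.774). SLC7A5 had a log2 difference of 0.69 (edgeR quasi-likelihood adjusted p = 0.043), against 0.34 as deposited (edgeR quasi-likelihood adjusted p = 0.811). Neither member passed once a replicate block was added to the fit with the GC trend removed. Dose and line cannot be told apart in either value.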

How the results depend on the processing

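In KELLY the count of members at an adjusted p under 0.05 was 0 as deposited and in each fit that left out a library, 3 by DESeq2, 3 with the GC trend removed, 3 with no filter on low counts and 2 with all 12 samples in 1 fit. At the study's threshold it was 4, and from 3 to 7 when a library was left out, with 7 without KELLY DMSO replicate 2. In SK-N-AS the adjusted count was 5, 9 with the GC trend removed, and from 4 to 9 when a library was left out, with 9 without SK-N-AS DMSO replicate 3. The interaction count was 0, and 2 with the GC trend removed. The cause was not tested. Shares over all tested genes are given above for the main fits, DESeq2 and the GC trend removed. For the other settings they are not given, so those counts describe the settings and not the carriers. The log2 fold change of SLC7A4 in KELLY reversed to -0.00443 by DESeq2, -0.353 with the GC trend removed, -0.00451 with RLE size factors, -0.0197 by limma-voom, -0.00267 over protein-coding genes, and between -0.194 and 0.237 when a library was left out. The interaction value of SLC1A5 reversed to 0.178 with the GC trend removed. Of 433 values of named genes under alternatives, 404 kept direction and side of the threshold, 4 lost the call, 13 gained it and 12 reversed. The 404 include values that were not called and stayed so, such as all 17 of SLC1A5 in KELLY. Whether replicate numbers pair the samples was not settled. The correlations of same-numbered samples' deviations were -0.487, -0.486 and -0.0364 in KELLY and -0.00788, 0.0579 and 0.123 in SK-N-AS. In KELLY none correlated best with its own number, and in SK-N-AS DMSO replicate 2 and both samples numbered 3 did. These deviations also followed each library's GC trend, such as -0.844 in KELLY DMSO replicate 1 and 0.879 in KELLY Erastin replicate 1, so they cannot settle it. The libraries with more than 3 HBB counts all bore number 1. With a replicate block the counts were 0 in KELLY and 5 in SK-N-AS, and SLC7A4 in KELLY was -0.0157. With the block and the GC trend removed, they were 0 and 9, the interaction count was 0, SLC7A4 in KELLY was -0.366 and the SLC1A5 interaction 0.166. Members with few counts, such as SLC7A3 and SLC1A6, are limited by depth.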
